A study of Mus musculus with 6 samples.

Results

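Neuregulins are epidermal growth factor-like ligands, and ErbB4 is a receptor tyrosine kinase that binds them. The binding of NOVA1 and NOVA2 to their pre-mRNAs is described here for 4 genes of 37310 in the annotation, the ligand genes Nrg1, Nrg2 and Nrg3 and the receptor gene Erbb4. A CLIP cluster was counted as theirs when 1 nt or more of it lay in the annotated span of the gene, strand for strand. This gave 85 of 9988 NOVA1 clusters and 373 of 36591 NOVA2 clusters. The genes were chosen by their numbers of NOVA1 and NOVA2 clusters, above all those in a crowded stretch of Nrg3, so cluster numbers and densities are descriptions and were not tested.

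HITS-CLIP recovers RNA that was crosslinked to a protein by ultraviolet light, with an antibody to that protein. The cortex of wild-type CD1 mouse embryos at embryonic day 18.5 was used for 3 NOVA1 and 3 NOVA2 libraries, biological replicates of each protein. The deposited lists hold 1 pooled tag count per cluster for each protein, so no value per library and no spread between libraries could be given. Both lists start at 10 tags, and the sum of tags was 304703 over the NOVA1 list and 1309270 over the NOVA2 list.

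The NOVA proteins are made in neurons, bind RNA at YCAY tetramers (CA between pyrimidines, Y being C or U), and regulate alternative splicing from sites in exons and introns. Neuregulins signal through ErbB receptors between neurons and between neurons and glia. In the cortex ErbB4 is known above all from interneurons, and neuregulin 1 and neuregulin 3 act in their migration and in the excitatory synapses that they receive. The RNA level of these genes cannot be read from the lists, and its part in the cluster numbers was not tested.

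The clusters were spread very unevenly over the 4 genes. Nrg3 held 68 NOVA1 and 261 NOVA2 clusters, and Erbb4 held 17 and 101. Nrg2 had 8 NOVA2 clusters and Nrg1 had 3, and neither had a NOVA1 cluster of at least 10 tags. Nrg3 alone therefore held 80% of the NOVA1 clusters, 70.0% of the NOVA2 clusters and 78.8% of the NOVA2 tags of the 4 genes. In each gene with clusters of both proteins the NOVA2 clusters were more numerous, with 3.84 NOVA2 clusters per NOVA1 cluster in Nrg3 and 5.94 in Erbb4. The same number was 3.66 over the whole lists and 6.79 over all intron clusters.

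**Figure D1:**
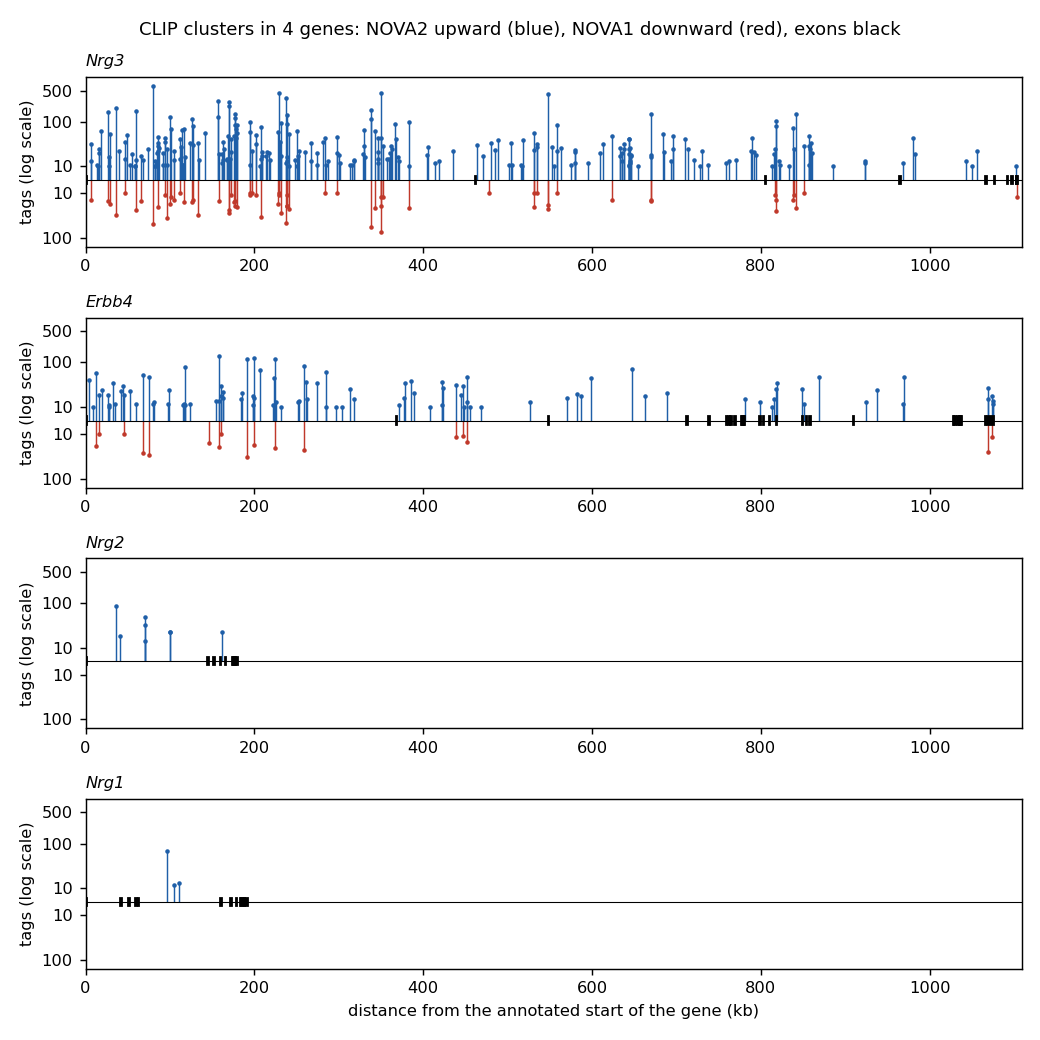
Each vertical line is 1 cluster, placed by its distance from the annotated start of the gene (kb) and drawn to its tag count (log scale), with NOVA2 upward in blue, NOVA1 downward in red and exons as black marks. The 261 NOVA2 clusters of Nrg3 and 101 of Erbb4 crowd toward the start of each gene, mostly in introns. The much shorter annotated spans of Nrg2 (180 kb) and Nrg1 (191 kb) hold 8 and 3.

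Nrg3 encodes neuregulin 3, a ligand of ErbB4 that is made mainly in the nervous system. The gene lies at chr14:39182138-40286376 on the minus strand (mm9, ENSMUSG00000041014.9), a span of 1104 kb. It had 6.16 NOVA1 and 23.6 NOVA2 clusters per 100 kb. By cluster number it ranked 2 for NOVA1 and 3 for NOVA2 among all genes, and by clusters per 100 kb it ranked 3 and 4 among the 200 protein-coding genes of at least 500 kb. The medians of those long genes were 0.468 NOVA1 and 3.33 NOVA2 clusters per 100 kb.

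The strongest clusters of Nrg3 are shown because both proteins were recovered on the same bases there. The sequences are the RNA strand of the mm9 genome written with T for U, and capitals mark every YCAY. The cluster of 627 NOVA2 tags, the highest of the 4 genes, overlapped a NOVA1 cluster of 48 tags (chr14:40206376-40206568), and it holds 11 YCAY in 196 nt. The cluster of 432 NOVA2 tags at chr14:39936154-39936521 overlapped 2 NOVA1 clusters, among them the highest of the gene, with 73 tags at chr14:39936173-39936356. Next among NOVA1 clusters of Nrg3 was that of 56 tags at chr14:39947545-39947897, which overlapped 2 NOVA2 clusters. Of the 368 nt of the NOVA2 cluster with 432 tags, the 300 nt from chr14:39936215-39936514 are printed, and they hold all 16 YCAY of that cluster.
Nrg3 intron 1, NOVA2, chr14:40206407-40206602, minus strand: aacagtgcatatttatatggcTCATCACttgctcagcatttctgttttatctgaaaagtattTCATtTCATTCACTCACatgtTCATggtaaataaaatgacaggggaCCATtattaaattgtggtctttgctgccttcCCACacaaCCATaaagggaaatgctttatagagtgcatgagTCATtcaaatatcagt
Nrg3 intron 1, NOVA2, chr14:39936215-39936514, minus strand: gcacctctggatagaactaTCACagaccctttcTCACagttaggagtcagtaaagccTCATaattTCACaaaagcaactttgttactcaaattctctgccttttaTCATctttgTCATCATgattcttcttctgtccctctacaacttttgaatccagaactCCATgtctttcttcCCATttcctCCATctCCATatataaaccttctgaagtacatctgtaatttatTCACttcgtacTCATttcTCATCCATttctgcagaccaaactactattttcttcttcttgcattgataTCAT

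The first of these clusters lay 78657 nt from the nearest annotated exon and the second 110767 nt. Each holds 1 pair of overlapping YCAY, and others directly follow each other. The third NOVA2 cluster by tags, with 430 at chr14:40056783-40057388, holds 21 YCAY in 606 nt. It overlapped 2 NOVA1 clusters, of 11 and 10 tags, whose sequences each have further near-identical copies in the genome (3 and 6). The NOVA2 cluster contains both sequences. A copy had to match 50% or more of a cluster, and none did so for the 606 nt of the NOVA2 cluster. Whether the tags of either protein there came from Nrg3 or from a copy was not tested. Over the 4 genes 25 of 458 clusters had such a copy, 4 of 68 NOVA1 and 15 of 261 NOVA2 clusters in Nrg3. Copies of a smaller part of a wide cluster are not in these counts.

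Within Nrg3 the clusters were concentrated in the first introns. Intron 1 (460 kb) held 50 NOVA1 and 165 NOVA2 clusters, 10.9 and 35.9 per 100 kb. Intron 2 (344 kb) held 10 and 68, and intron 3 (159 kb) held 7 and 21. Intron 4 (102 kb) held no NOVA1 and 6 NOVA2 clusters, and the shorter introns 5 to 9 held none. The density of NOVA2 clusters thus decreased from 35.9 per 100 kb in intron 1 over 19.8 and 13.2 to 5.87 in intron 4.

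Counted by distance, the 552 kb nearest the annotated start held 56 of 68 NOVA1 clusters (82.4%, 95% Wilson interval 71.6 to 89.6) and 181 of 261 NOVA2 clusters (69.3%, 63.5 to 74.6). The fullest bin of 50 kb was 150 to 200 kb from the start, with 28 NOVA2 and 11 NOVA1 clusters, and beyond 900 kb no bin held more than 3 NOVA2 clusters. This lean toward the start was common in long genes. Among 112 genes of at least 500 kb with at least 20 NOVA2 clusters, the median share in the start-side part of equal length was 67.3% (quartiles 54.1 and 74.6), and 50 of them lay above Nrg3. Along the 23 bins of Nrg3 the NOVA1 and NOVA2 cluster numbers had a Spearman rho of 0.84 and a Pearson r of 0.84. Neighboring bins of 1 gene are not independent, and no test was made. As 66 of 68 NOVA1 clusters overlapped a NOVA2 cluster, the counts of both proteins per bin are not separate measures either.

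**Figure D2:**
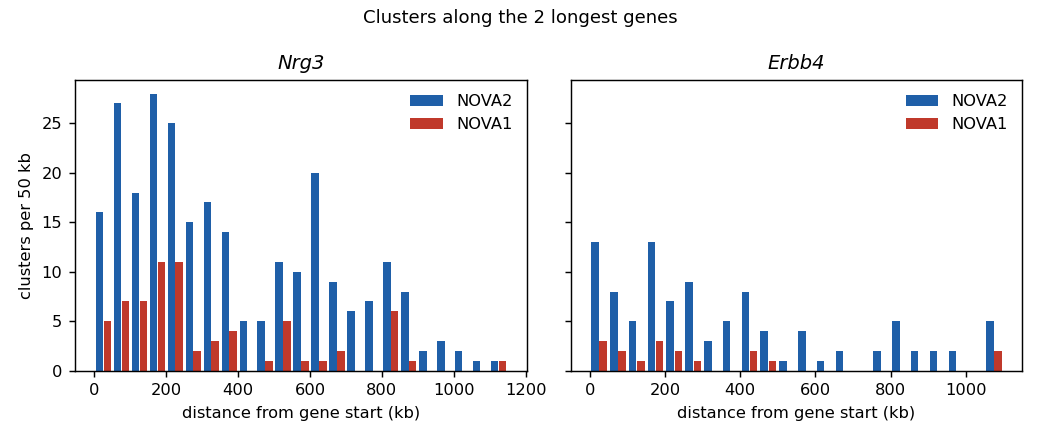
Clusters per 50 kb (y axis) are drawn against the distance from the gene start in kb (x axis) for Nrg3 and Erbb4, with NOVA2 in blue and NOVA1 in red; the last bin of each gene is partial. Nrg3 reaches 28 NOVA2 clusters in the bin from 150 to 200 kb and has at most 3 per bin beyond 900 kb.

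Neighboring NOVA2 clusters in Nrg3 were a median of 1456 nt apart (95% interval of the median 1075 to 1918, quartiles 279 and 4950), and these gaps include those of the stretch by which the gene was chosen. A neighbor within 1 kb was found for 175 of 261 NOVA2 clusters (67.0%) and for 26 of 68 NOVA1 clusters (38.2%). In the stretch by which the gene was chosen, 41 of 50 NOVA2 clusters had such a neighbor. These shares were not computed for other long genes, so whether they are unusual was not tested. NOVA1 clusters had a median gap of 4653 nt (2309 to 7028), but with the NOVA2 list cut to as many top clusters as the NOVA1 list holds, the NOVA2 gap was 5371 nt, so which protein had the shorter gaps depended on the length of the lists. The longest stretch of Nrg3 without a NOVA2 cluster was 60.6 kb in intron 4 (chr14:39242926-39303551). All NOVA2 clusters of the gene together covered 37321 nt.

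The crowded stretch of intron 1 that led to the choice of the gene, chr14:40100001-40200000, lay 86.4 to 186 kb from the start. Its NOVA2 clusters had between 11 and 287 tags (median 34.5) and covered 8098 nt, 8.10% of the stretch, and its NOVA1 clusters had between 10 and 35 tags (median 16). The NOVA2 clusters were a median of 670 nt apart, with 28 of 49 gaps at most 1 kb and 9 at most 100 nt, and the largest gap was 15.9 kb. All 18 NOVA1 clusters there overlapped a NOVA2 cluster, and 19 NOVA2 clusters overlapped a NOVA1 cluster. The adjacent stretches of 100 kb held fewer, with 41 NOVA2 and 15 NOVA1 clusters on the side away from the start and 35 and 9 on the side toward it, where the gene begins within the stretch.

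**Figure D3:**
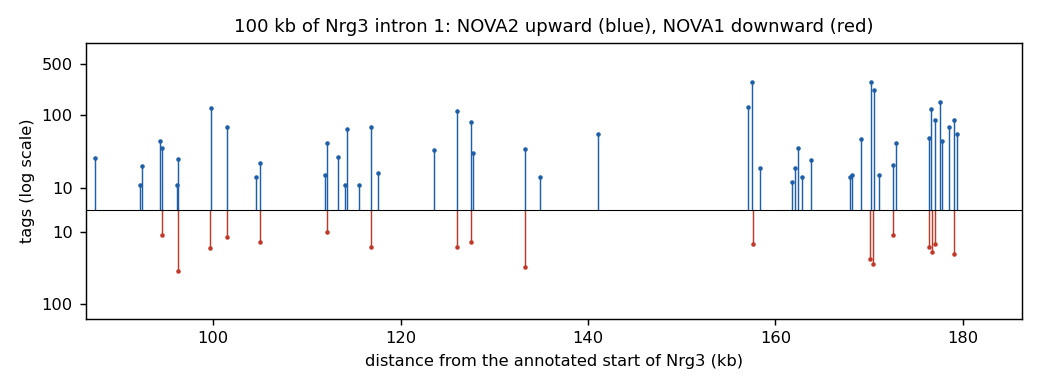
The clusters of the 100 kb stretch of Nrg3 intron 1 are placed by distance from the gene start (kb) and drawn to their tags (log scale), with NOVA2 upward in blue and NOVA1 downward in red. The 50 NOVA2 clusters are a median of 670 nt apart, the largest gap between them is 15.9 kb, and all 18 NOVA1 clusters stand opposite a NOVA2 cluster.

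Almost every NOVA1 cluster in Nrg3 lay on a NOVA2 cluster. The share was 66 of 68 (97.1%, 89.9 to 99.2), beside 80.1% of the whole NOVA1 list and 95.5% of its intron clusters. In the other direction 63 of 261 NOVA2 clusters overlapped a NOVA1 cluster (24.1%, 19.3 to 29.7), beside 22.1% of the whole NOVA2 list and 14.1% of its intron clusters. The overlapping NOVA2 clusters had a median of 70 tags and the other 198 a median of 18. The 2 NOVA1 clusters without a NOVA2 partner were weak, with 10 tags in intron 2 (chr14:39807848-39807970) and 12 tags in the 3′ UTR (chr14:39182416-39182654).

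Of the 24 NOVA2 clusters in Nrg3 with at least 100 tags, 22 overlapped NOVA1. The exceptions were chr14:40108737-40108840 with 151 tags and chr14:40129150-40129334 with 131 tags, both in the crowded stretch of intron 1 and named after their values were seen. The second of them directly adjoined a NOVA2 cluster of 287 tags (chr14:40128641-40129149) that did overlap NOVA1, with 15 NOVA1 tags.

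Exonic clusters were nearly absent from Nrg3. The gene is mostly intron by length, and whether its exons held fewer clusters than their length gives was not tested. The whole lists, set beside it here, are not matched for gene structure. Introns held 67 of 68 NOVA1 clusters (98.5%) and 260 of 261 NOVA2 clusters (99.6%), beside 40.3% of the whole NOVA1 list and 74.6% of the whole NOVA2 list. The remaining cluster in each list lay in the 3′ UTR, with 12 NOVA1 tags and 10 NOVA2 tags (chr14:39183526-39183649), and those 2 did not overlap. Beyond the annotated end of the gene, 3 NOVA1 clusters (10 to 13 tags) and 5 NOVA2 clusters (11 to 37 tags) followed on the same strand within 5.01 kb. Intron clusters were far from exons, at a median of 111 kb for both proteins, and 253 of 260 NOVA2 clusters (97.3%) were over 10 kb from any annotated exon. The introns that held them are 102 to 460 kb long, and the distances of intron sequence itself were not computed. A preference for sites far from exons was therefore not tested. The annotation gives 4 cassette exons in Nrg3, internal exons that some protein-coding transcripts skip, and none had a cluster of either protein within 500 nt. The share of all annotated cassette exons with such a cluster was not computed.

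Nrg1 encodes neuregulin 1, the most studied ligand of ErbB3 and ErbB4. The annotated gene is chr8:32928500-33119581 on the minus strand (ENSMUSG00000062991.5), 191 kb. Its 3 NOVA2 clusters had 68, 13 and 12 tags and all lay in intron 5 (97.5 kb), between 95.9 and 111 kb from the annotated start. The cluster of 68 tags stood well above the other two, which were near the lower limit of the list. The strongest and the weakest are printed, the second because its YCAY run together at its 3′ end, where 5 of them follow each other without a break.
Nrg1 intron 5, NOVA2, 68 tags, chr8:33023493-33023772, minus strand: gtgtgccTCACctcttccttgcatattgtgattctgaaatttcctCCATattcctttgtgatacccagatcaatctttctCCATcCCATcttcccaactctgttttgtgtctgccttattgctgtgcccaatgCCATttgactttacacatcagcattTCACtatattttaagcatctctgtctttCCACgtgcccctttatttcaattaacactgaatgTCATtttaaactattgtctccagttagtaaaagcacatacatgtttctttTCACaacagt
Nrg1 intron 5, NOVA2, 12 tags, chr8:33014327-33014405, minus strand: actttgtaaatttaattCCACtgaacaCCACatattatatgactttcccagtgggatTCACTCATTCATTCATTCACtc

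The first sequence holds 9 YCAY in 280 nt and the second holds 7 in 79 nt. None of the 3 clusters overlapped a NOVA1 cluster, beside 14.1% of all intron NOVA2 clusters that did. Within the annotated span no cluster was closer than 60096 nt to any of the 3 cassette exons of Nrg1. Clusters past the annotated end of the gene, given below, were left out of this distance, and some of them are closer. The annotation used here may give Nrg1 only in part, since the gene is known to have further promoters upstream. Outside the annotated span, on the same strand and in no annotated gene, 11 NOVA2 clusters (10 to 59 tags) and 1 NOVA1 cluster (16 tags) lay 92.8 to 276 kb upstream. The search, made after the values in the gene were seen, stopped at 300 kb upstream. Within 10 kb downstream there were 3 NOVA2 clusters (17 to 68 tags) and 2 NOVA1 clusters (12 and 22 tags). Counting 10 kb on either side would thus raise Nrg1 from 3 to 6 NOVA2 clusters and from 0 to 2 NOVA1 clusters.

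Nrg2 encodes neuregulin 2, a ligand close to neuregulin 1 that is expressed in the brain. Its span of 180 kb (ENSMUSG00000060275.4) held 8 NOVA2 clusters, 4.45 per 100 kb. Their tag counts were 87, 49, 32, 23, 22, 22, 18 and 14 and none of them overlapped a NOVA1 cluster. The highest exceeded the median of 70 tags that shared NOVA2 clusters had in Nrg3. Of the 8 clusters 7 lay in intron 1 (143 kb) and 1 in intron 4 (5.82 kb), and 5 had a neighbor within 1 kb. The cluster in intron 4, with 23 tags, was 2253 nt from the nearest exon and was the closest of the 8 to any of the 3 cassette exons (2894 nt).

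Erbb4 encodes the receptor, at chr1:68078760-69154633 on the minus strand (ENSMUSG00000062209.8), a span of 1076 kb that nearly equals that of Nrg3. It had 1.58 NOVA1 and 9.39 NOVA2 clusters per 100 kb, ranking 47 and 42 among the genes of at least 500 kb. Intron 1 (367 kb) held 12 NOVA1 and 58 NOVA2 clusters, intron 2 (180 kb) held 3 and 18, and intron 3 (164 kb) held 0 and 7. The 538 kb nearest the start held 76 of 101 NOVA2 clusters (75.2%, 66.0 to 82.6) and 15 of 17 NOVA1 clusters. As in Nrg3, the bins of 50 kb that were rich in one protein were rich in the other (Spearman rho of 0.82, Pearson r of 0.88, 22 bins). Here too the counts per bin are not separate measures, since 15 of 17 NOVA1 clusters overlapped a NOVA2 cluster. Many of the bins held no NOVA1 cluster. The clusters were sparser than in Nrg3, at a median gap of 4555 nt for NOVA2 (2981 to 6409) and 17182 nt for NOVA1. A neighbor within 1 kb was found for 34 of 101 NOVA2 clusters (33.7%) and 0 of 17 NOVA1 clusters.

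In Erbb4, 15 of 17 NOVA1 clusters overlapped a NOVA2 cluster (88.2%, 65.7 to 96.7), and 15 of 101 NOVA2 clusters overlapped a NOVA1 cluster (14.9%, 9.21 to 23.1). Over the whole lists these shares were 80.1% and 22.1%, and over intron clusters 95.5% and 14.1%. The intervals of Erbb4 contain all of these values. The intervals of Nrg3 and Erbb4 overlap for both shares. The highest NOVA2 cluster of Erbb4, with 138 tags (chr1:68996055-68996189), overlapped 20 NOVA1 tags, but its sequence has 2 further copies in the genome. The next had 123, 120 and 117 tags, overlapping 18, 21 and 33 NOVA1 tags. The second and the third NOVA1 cluster by tags had 30 (chr1:69079452-69079548) and 27 (chr1:69086473-69086748), and they overlapped NOVA2 clusters of 46 and 52 tags. The highest NOVA1 cluster, with 33 tags, is printed because it holds the most YCAY of the NOVA1 clusters in the 4 genes, 12 in 158 nt, many of them in overlapping chains.
Erbb4 intron 1, NOVA1, chr1:68962821-68962978, minus strand: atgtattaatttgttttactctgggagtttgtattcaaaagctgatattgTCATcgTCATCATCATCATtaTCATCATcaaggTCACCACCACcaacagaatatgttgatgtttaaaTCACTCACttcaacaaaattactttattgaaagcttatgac

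Erbb4 had the only cluster in coding sequence among the 4 genes, which was also the only cluster within 500 nt of a cassette exon. As background, ErbB4 transcripts carry alternative juxtamembrane exons. The form with the longer exon, JM-a, can be cut at the cell surface and the form with the shorter exon, JM-b, cannot. In the annotation the 75-nt exon lies at chr1:68336817-68336891 and the 45-nt exon at chr1:68337013-68337057, upstream of it in the gene. A NOVA2 cluster of 26 tags covered 62 nt of the 75-nt exon and 38 nt of the intron after it, and its edge was 134 nt from the 45-nt exon. It holds 8 YCAY in 100 nt, 5 inside the exon and 3 in the intron, and no NOVA1 cluster overlapped it. The tag count gives binding only, and exon use was not measured here. The cluster is printed whole.
Erbb4 75-nt exon and following intron, NOVA2, chr1:68336779-68336878, minus strand: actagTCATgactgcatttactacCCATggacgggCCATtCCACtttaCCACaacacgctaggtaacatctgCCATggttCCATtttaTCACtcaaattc

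The remaining cassette exon of Erbb4, of 48 nt (chr1:68090482-68090529), had its nearest NOVA2 cluster 5311 nt away. This length is that of the exon that sets the CYT-1 form of the receptor tail, which binds phosphoinositide 3-kinase. Among intron clusters of Erbb4, 84 of 95 for NOVA2 (88.4%) and 15 of 15 for NOVA1 were over 10 kb from any exon, with medians of 67.6 and 83.7 kb. As in Nrg3, the distances of intron sequence itself were not computed. The nearest to an exon, with 25 tags in intron 16 (chr1:68306099-68306210), was 211 nt away and was also named after its values were seen.

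The annotated 3′ UTR of Erbb4 held 2 NOVA1 and 5 NOVA2 clusters, more than those of the other 3 genes together. Within 10 kb past the annotated ends, however, Nrg3 had 3 NOVA1 and 5 NOVA2 clusters and Nrg1 had 2 and 3. The comparison thus depends on where the annotation ends each gene, and whether these clusters lie in longer 3′ UTRs was not tested. A single pair overlapped in the Erbb4 3′ UTR, with 25 NOVA1 tags (chr1:68085057-68085153) and 27 NOVA2 tags (chr1:68085018-68085170). Its log2 NOVA1 to NOVA2 ratio, -0.11, was the highest of the 66 pairs of the 4 genes where neither cluster had a further partner. The other NOVA1 cluster, with 12 tags at chr1:68080646-68080678, had no NOVA2 partner. The other NOVA2 clusters had 12 (chr1:68079201-68079318), 14 (chr1:68079683-68079778), 18 (chr1:68080359-68080609) and 15 tags (chr1:68084923-68084996). The only NOVA1 cluster in an Erbb4 intron without NOVA2 had 16 tags (chr1:69008402-69008514, intron 1).

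Where a NOVA1 and a NOVA2 cluster overlapped with no further partner, the tags could be set side by side, in 51 pairs of Nrg3 and 15 of Erbb4. In all 66 the NOVA2 cluster had more tags in the unscaled counts, a direction that turns at the median with scaling to list sums but not with scaling to library totals. As a log2 ratio, NOVA1 over NOVA2, the median was -1.82 (quartiles -2.53 and -1.26, 95% interval of the median -2.17 to -1.61), but with tags scaled to the sum of each list it became 0.28, and with tags scaled to the unique tags of all libraries of each protein it became -0.47, so the sign depends on the scaling. The median was -2.07 in Nrg3 (-2.27 to -1.71) and -1.54 in Erbb4 (-1.87 to -0.93), or -1.57 in its 14 intron pairs alone (-2.51 to -0.93), beside -2.04 (-2.08 to -2.00) over 3452 pairs in all introns, a comparison that the scaling does not alter. Over intron pairs the intervals of both genes contain the value of all introns, and clusters of 1 gene are not replicates. The lowest pair, -4.26, was the cluster of 287 NOVA2 and 15 NOVA1 tags in Nrg3, and the pair of 627 and 48 tags had -3.71.

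**Figure D4:**
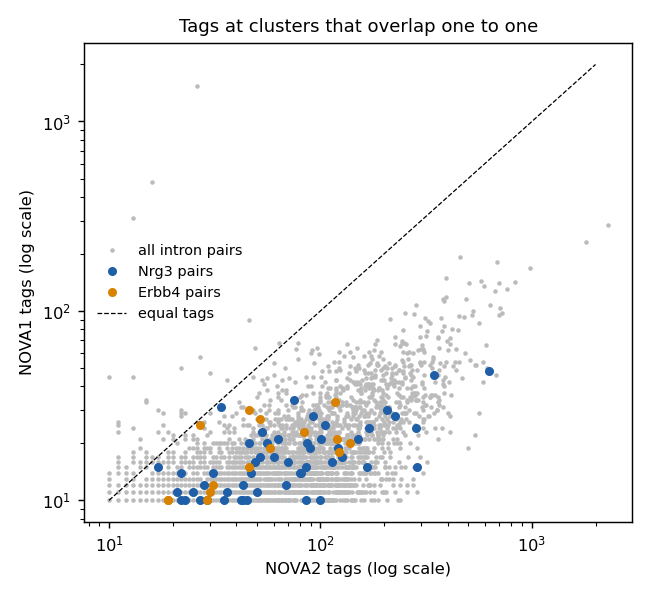
NOVA1 tags (y axis) are plotted against NOVA2 tags (x axis), both on log scales, for clusters that overlap 1 to 1; gray points are pairs in all introns, blue points Nrg3, orange points Erbb4, and the dashed line marks equal tags. All 51 pairs of Nrg3 and 15 of Erbb4 lie below the line in these unscaled counts, within the cloud of the other introns, and their median log2 ratio becomes 0.28 with tags scaled to list sums and -0.47 with tags scaled to library totals.

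Whether a NOVA2 cluster had a NOVA1 partner followed its tag count closely. Over the 4 genes the share was 5 of 172 at 10 to 19 tags (2.91%), 26 of 136 at 20 to 49 tags (19.1%), 21 of 37 at 50 to 99 tags (56.8%) and 26 of 28 at 100 tags or more (92.9%). Over all introns the shares in the same ranges were 2.25, 12.8, 47.4 and 84.8%. Nrg3 had 20.4% at 20 to 49 tags (13.6 to 29.4) and 64.3% at 50 to 99 tags (45.8 to 79.3), and Erbb4 had 18.2% (8.61 to 34.4) and 42.9% (3 of 7). At 20 to 49 tags the interval of Nrg3 lay just above the value of all introns, and in the other ranges the intervals of both genes contained it. A site with fewer than 10 NOVA1 tags is not in the NOVA1 list, so a missing partner does not show that NOVA1 was absent.

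**Figure D5:**
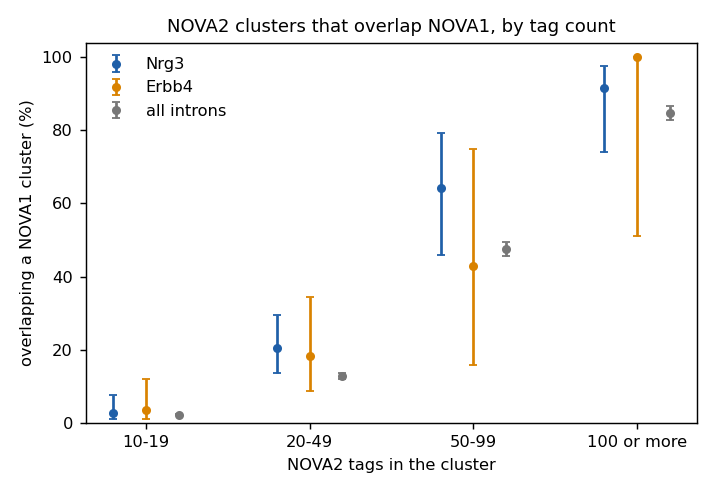
The percent of NOVA2 clusters that overlap a NOVA1 cluster (y axis) is shown by NOVA2 tags in the cluster (x axis) for Nrg3 (blue), Erbb4 (orange) and all introns (gray); bars are 95% Wilson intervals. In Nrg3 the share goes from 2.70% at 10 to 19 tags to 91.7% at 100 tags or more.

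YCAY was denser in the clusters than beside them in each of the 4 genes. Against flanks 200 to 500 nt away, the fold was 1.88 in NOVA2 clusters of Nrg3 (95% interval 1.76 to 2.01; 35.1 against 18.6 YCAY per 1000 positions) and 2.32 in its NOVA1 clusters (2.04 to 2.64). In Erbb4 it was 2.50 for NOVA2 (2.24 to 2.79) and 2.52 for NOVA1 (1.95 to 3.25). The NOVA2 clusters of Nrg1 had 2.13 (1.24 to 3.66) and those of Nrg2 had 1.96 (1.37 to 2.81). Over all introns the fold was 2.41 for NOVA2 (2.39 to 2.42) and 2.81 for NOVA1 (2.76 to 2.85). The intervals of Nrg3 thus lay below the intron values for both proteins, and those of Erbb4 spanned them. These intervals cover the count of motifs only. The flanks were not cleared of neighboring clusters, which stand close together in Nrg3. Intron sequence of the 4 genes away from clusters had 16.7 YCAY per 1000 positions, fewer than the flanks of Nrg3. Flanks of NOVA2 clusters had 18.6 YCAY per 1000 positions both in Nrg3 and over all introns, and the clusters had 35.1 and 44.9. NOVA1 clusters had 41.7 in Nrg3 and 53.4 over all introns, and their flanks had fewer YCAY in Nrg3. The lower folds of Nrg3 thus went with fewer YCAY in its clusters and not with richer flanks than over all introns. What clearing the flanks of neighboring clusters would change was not tested.

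YCAY density was close in NOVA2 clusters with and without NOVA1. NOVA2 clusters with a NOVA1 partner had 36.2 YCAY per 1000 positions and those without had 36.7, folds of 2.07 and 2.02 with overlapping intervals. In Nrg3 the number of YCAY in a NOVA2 cluster had a Spearman rho of 0.45 with its tags (261 clusters), cluster width had 0.56, and YCAY per nt had -0.04. In Erbb4 the same values were 0.56 for the number of YCAY, 0.44 for width and 0.27 for YCAY per nt (101 clusters). Only 1 of the 373 NOVA2 clusters held no YCAY, at 10 tags and 67 nt in Nrg3 intron 2 (chr14:39642164-39642230). Among all tetramers, UCAU was the most enriched over flanks in the NOVA1 and NOVA2 clusters of the 4 genes (log2 of 1.59 and 1.26), followed by CAUC (1.38 and 1.22) and UCAC (1.36 and 1.17). In the NOVA2 clusters of Nrg3 alone the order was UCAC (1.17), CAUC (1.13) and UCAU (1.10).

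Among the genes most like Nrg3 in NOVA1 clusters, NOVA2 clusters and length were other very long neuronal genes. By distance in these 3 measures on log2 scales, over 5248 genes, they included Nrxn3 (67 NOVA1 and 273 NOVA2 clusters, 1612 kb) and Odz2 (47 and 224, 1229 kb). Nrxn3 encodes a presynaptic adhesion protein, and Odz2 a teneurin. Nearest to Erbb4 were Kcnip4 (15 and 102 clusters), a potassium channel subunit, Galntl6 (17 and 89) and Dcc (17 and 85), the netrin receptor.

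Other genes of the pathway are set beside all 22380 protein-coding genes, of which 12.7% had a NOVA1 cluster and 22.7% a NOVA2 cluster, a background that is not matched for gene length. Of 8 other ErbB ligands, 2 had a cluster of each protein, Tgfa (15 NOVA1 and 21 NOVA2 tags) and Hbegf (24 and 94 tags). Of the other receptors, Egfr had 1 cluster of each protein (69 and 167 tags), and Erbb2 and Erbb3 had none. Among 6 proteases that cut neuregulins or ErbB4, 4 had NOVA1 and 3 had NOVA2 clusters, from 7 NOVA2 clusters in Adam10 to none of either protein in Adam17.

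Of 23 adaptors, kinases and other partners of the receptors, 12 had NOVA1 and 19 had NOVA2 clusters. The scaffold gene Magi2 held 27 NOVA1 and 138 NOVA2 clusters, 9.34 NOVA2 clusters per 100 kb and thus close to Erbb4. Nedd4, which encodes a ubiquitin ligase, held 11 and 12 clusters, nearly as many of NOVA1 as of NOVA2. The 40 pathway genes together held 73 NOVA1 and 280 NOVA2 clusters, beside 85 and 373 in Nrg1, Nrg2, Nrg3 and Erbb4.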

How the data were processed

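NOVA1 and NOVA2 HITS-CLIP libraries, 3 per protein, were made from E18.5 cortex. Per the study's methods, reads were aligned to mm9 with novoalign, PCR duplicates were collapsed, overlapping tags were grouped into clusters, and clusters found in at least 2 libraries were kept. The authors deposited tag counts per cluster, pooled over libraries, unscaled, with a minimum of 10. Whether a value is the number of tags or the peak height is not stated in the lists, and the lists do not give library depth. Submitters' notes name Novoalign without a version.

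Clusters were assigned to GENCODE vM1 spans on NCBIM37 (mm9), and 0 clusters ended past a chromosome end. Classes followed the annotation covering most nucleotides. The study's design has no comparison with values per library, so no p-value was computed. Share intervals are Wilson, median intervals are binomial order statistics, and all cover counting error only. Named clusters were the 3 highest per gene and list, all outside introns, all NOVA1 clusters without NOVA2, and those within 500 nt of a cassette exon; named genes were the 3 nearest to Nrg3 and to Erbb4 and pathway genes with at least 10 NOVA2 clusters. Others were named to complete counts, and some genes that met these rules are not reported here. The genes, lists and tests were chosen with earlier results of these data known. Further genomic copies were BLAST+ matches with 90% identity or more that spanned 50% or more of a cluster (version 2.17.0). Python 3.11.15, pandas 2.3.3, NumPy 2.4.6, SciPy 1.17.1 and pysam 0.24.0 were used, and the scripts were tested on simulated data. Alternatives varied the strand rule, gene edges, annotation, tag threshold, overlap, list length, scaling and motif background. Scaling to the unique tags of all libraries, from the totals in the study, was added after seeing the data.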

Additional observations from a re-analysis of the deposited data

How the results depend on the processing

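Of 32 alternatives to 10 results (9 on the 4 genes together and the gap in Nrg3), 20 left the value within its interval or within 1.5 times the count, 11 moved it and 1 reversed it. With both lists limited to clusters of at least 20 tags, the 4 genes had 28 NOVA1 and 201 NOVA2 clusters, the NOVA1 share overlapping NOVA2 was 100%, the NOVA2 share overlapping NOVA1 was 14.4%, and the median gap in Nrg3 was 2428 nt. With the NOVA2 list cut to its top clusters, as many as in the NOVA1 list (lowest count 31 tags), these shares were 77.6% and 50.4% and the gap was 5371 nt. Scaling tags to the list sums turned the median log2 ratio, NOVA1 over NOVA2, from -1.82 to 0.28, and scaling to the unique tags of all libraries, chosen after seeing the data, gave -0.47. The YCAY fold of NOVA2 clusters was 2.19 against intron sequence of the same genes away from clusters, and 2.17 in 100 nt around the midpoints. The causes were not tested. Of 32 alternatives for single genes, 25 left the count within 1.5 times and 7 moved it; at 20 tags Nrg3 had 21 NOVA1 and 150 NOVA2 clusters, Erbb4 had 7 and 44, and Nrg1 had 1 NOVA2 cluster. No paired analysis was possible because each cluster has 1 count per protein, summed over libraries by the authors. Leaving out a library was not possible either. The pooled counts and the 10-tag limit set what can be seen: clusters below it are not in the lists.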
